A study of Homo sapiens with 28 samples.

Results

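Untreated tumours of A498 were compared with untreated tumours of 786-O across all genes of the array, as a description of how these renal cell carcinoma lines differ as xenografts before any drug. The comparison used 9 of the 28 tumours of the series, chosen by their labels alone: 4 labelled as untreated A498 tumours and 5 labelled as untreated 786-O tumours of the sunitinib arm. Cells of either human line had been injected under the skin of the flank of female athymic nude/beige mice aged 6 to 8 weeks, and the tumours were excised, snap frozen and extracted with Trizol. The series was made to follow expression during resistance to inhibitors of the VEGF receptor, and these tumours are its controls. The labels place the A498 controls in a sorafenib arm and do not say whether control mice received a vehicle. They give tumour sizes of 12 mm before treatment and 20 mm at the permitted limit, without saying which the untreated tumours had reached, and the lines could differ in this. Each group stands for 1 cell line, so the comparison describes A498 against 786-O and not kinds of patient tumour. Whether every tumour was from a different mouse is not stated. The p-values for genes measure only the spread between tumours within groups, taken over all 28 tumours of the series. The titles of all 9 tumours begin with 35, which the labels do not explain. Another 5 untreated 786-O tumours, of the sorafenib arm, have titles that begin with 33, and were used as a second comparator. The 5 A498 and 5 786-O tumours labelled as resistant to sorafenib share no array with the comparison and were used to see the line difference a second time.

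Clear cell renal cell carcinoma arises from the epithelium of the proximal tubule, and its usual first step is the loss of VHL. The VHL protein is the part of a ubiquitin ligase that recognises the alpha subunits of the hypoxia-inducible factors, so in its absence these factors accumulate at normal oxygen. Both A498 and 786-O lack a working VHL. HIF-2alpha, the product of EPAS1, is held to be the form that drives growth in this cancer, and HIF-1alpha, the product of HIF1A, is known to be missing from 786-O.

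The lines differed widely. Differences are given as A498 minus 786-O on the scale of log2(signal + 16), where the added 16 makes differences of dim genes look smaller, and a gene is said to be called at an adjusted p under 0.05 in limma's moderated test. Of 13808 genes tested, 8002 were called, a share of 58.0%: 3772 were higher in A498 (27.3%) and 4230 were higher in 786-O (30.6%). A difference of at least 1, which is a factor of 2 on that scale, was reached by 3099 called genes (22.4%), 1810 of them higher in A498 (13.1%) and 1289 higher in 786-O (9.34%). The largest differences leaned to A498, with 177 genes higher there by at least 4 and 67 higher in 786-O by as much. With so many genes called, a count of called members in a list is read below against these shares, and lists are described by the members that also reached a difference of 1. The lists were chosen with results of these data known, so their counts describe the lines and test nothing.

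**Figure D1:**
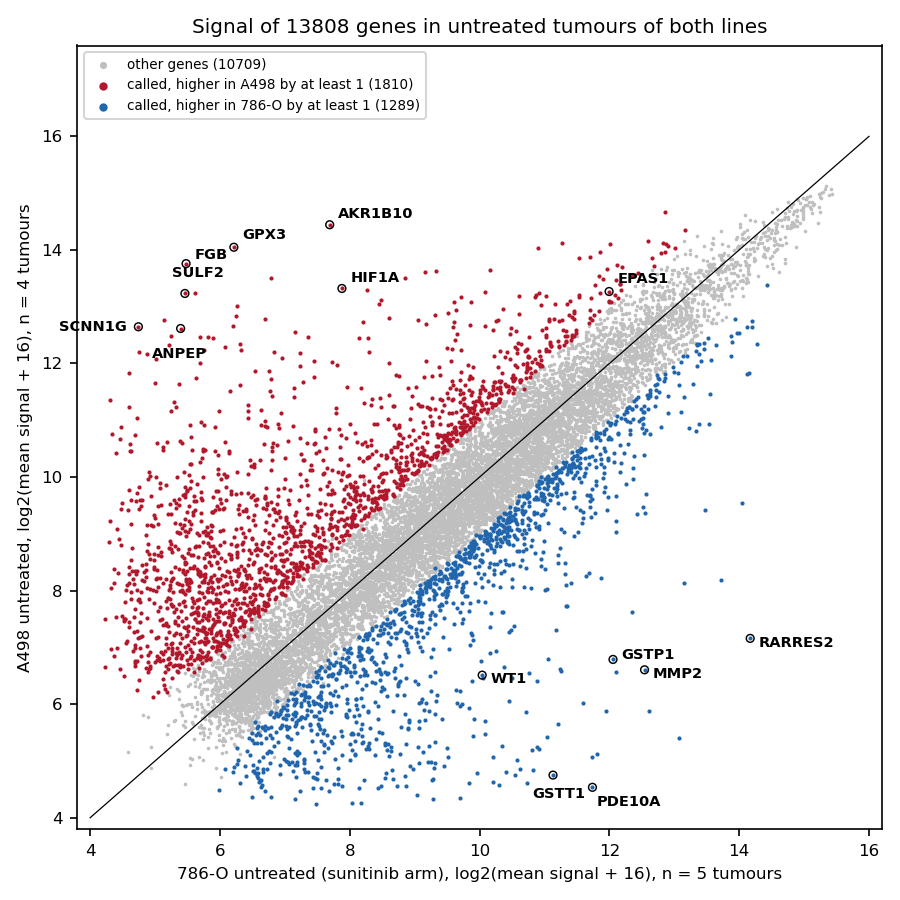
Each point is 1 of 13808 genes, placed by its mean signal in 5 untreated 786-O tumours (x axis) and in 4 untreated A498 tumours (y axis), both as log2(mean signal + 16). The line marks equal signal, and colours mark the 1810 and 1289 genes called and differing by at least 1. The cloud of points far above the line at low 786-O signal (FGB, SULF2, SCNN1G, GPX3) is larger than its counterpart far below it (RARRES2, MMP2, GSTP1, PDE10A).

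The arrays of the comparison separated by line. Correlations of log2 signal across probe sets ran from 0.963 to 0.971 among the A498 tumours and from 0.959 to 0.970 among the 786-O tumours. Between the lines they ran from 0.896 to 0.911. Between untreated 786-O tumours of the sorafenib and sunitinib arms they ran from 0.945 to 0.966, reaching below the range within the sunitinib arm. The median spread of a gene within a group was an SD of 0.219 in A498 and 0.224 in 786-O, while the median size of the difference between the lines was 0.487. Array medians differed between the lines by -0.0045 on the log2 scale. The 3-prime minus 5-prime difference of the control probe sets, a sign of RNA integrity, differed by -0.100 for GAPDH (A498 minus 786-O, exact two-sided permutation p = 0.0635) and by -0.0931 for ACTB (p = 0.143), where the smallest p that 4 against 5 tumours allow is 0.0159. Human probes can also bind RNA of the mouse host, and in bulk tumours fewer cells of a type cannot be told apart from less RNA per cell.

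HIF1A was high in A498 and low in 786-O, and EPAS1 was high in both. HIF1A gave signals of 10558, 10635, 8591 and 11085 in the A498 tumours and of 256, 197, 249, 164 and 231 in the 786-O tumours. Every A498 tumour was far above every 786-O tumour, with a difference of 5.45 ± 0.28 (SE; adjusted p = 2.31e-14). The gene had 1 probe set. Its level was about as high in resistant A498 tumours (mean 10798 ± 359, SD, n = 5), and 786-O tumours stayed low both in the other untreated group (400 ± 117, n = 5) and when resistant (225 ± 55.9, n = 5). Among the 20 tested genes that lie nearest to HIF1A on either side, 0 were higher in A498 by at least 1 and 6 were higher in 786-O, so its neighbours did not share its difference.

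EPAS1, which encodes HIF-2alpha, was strong in both lines and stronger in A498. Its signals were 11098, 9757, 9593 and 8930 in A498 and 4108, 3647, 3631, 4590 and 4357 in 786-O, without overlap (difference 1.27 ± 0.12, adjusted p = 9.4e-10). This difference shrank to 0.47 in resistant tumours, where the 786-O mean was 7947 against 11133 in A498. EPAS1 lies in a run of 32 neighbouring genes from HNRNPLL to RHOQ of which 24 were called higher in A498, and 8 of its 20 nearest tested neighbours were higher there by at least 1. ARNT, the partner that both alpha subunits need to bind DNA, was lower in A498 (-0.92 ± 0.21), and so was ELOC, a subunit of the VHL ligase (-0.59 ± 0.09).

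VHL transcript was dim in both lines. Its signals were 124, 101, 71.4 and 132.9 in A498 and 130, 320, 212, 266 and 251 in 786-O, with 1 tumour of the latter inside the A498 range. The difference was -1.0 ± 0.24 (adjusted p = 0.000783), but it was -0.32 with an adjusted p of 0.0647 when the probe sets of the gene were averaged. A probe set outside a mutated stretch says nothing of the protein.

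Targets of these factors differed in both directions, as genes did in general. Of 34 tested hypoxia and HIF target genes, 7 were called and higher in A498 by at least 1 and 3 were higher in 786-O. Together these were 29.4%, beside 22.4% over all genes tested. The median difference was 0.06 beside -0.06 over all genes tested. Without 1 tumour that median ran from 0.0086 (A498 tumour 1 left out) to 0.16 (A498 tumour 3). LOX, which cross-links collagen and elastin, gave 7594, 6263, 4967 and 7510 in A498 against a range of 398 to 849 in 786-O (difference 3.54 ± 0.24). ANKRD37 (2.92 ± 0.18), ANGPTL4, a secreted inhibitor of lipoprotein lipase (2.19 ± 0.35), and the chemokine receptor CXCR4 (1.57 ± 0.28) were also higher in A498. ANKRD37 sits in a run of 29 neighbouring genes from TENM3-AS1 to TRIML2, of which 23 were called higher in A498 with a median of 1.51. Higher in 786-O were PFKFB3, which makes an activator of glycolysis (-1.34 ± 0.18), CCND1, the cyclin D1 gene that HIF-2alpha is known to raise in renal carcinoma (-1.10 ± 0.13), and the glucose transporter gene SLC2A1 (-1.04 ± 0.12). VEGFA, the angiogenic factor these drugs act against, did not pass the test (-0.23 ± 0.11, adjusted p = 0.0688), with signals of 12245 to 14988 in A498 and 15037 to 16426 in 786-O. It was called without A498 tumour 2 (-0.28, adjusted p = 0.0391) and against the other untreated 786-O group (-0.26, adjusted p = 0.0386). EGLN3, a HIF-induced oxygen sensor and defining marker of this carcinoma, had 7452 ± 831 (SD, n = 4) and 6841 ± 779 (SD, n = 5).

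**Figure D2:**
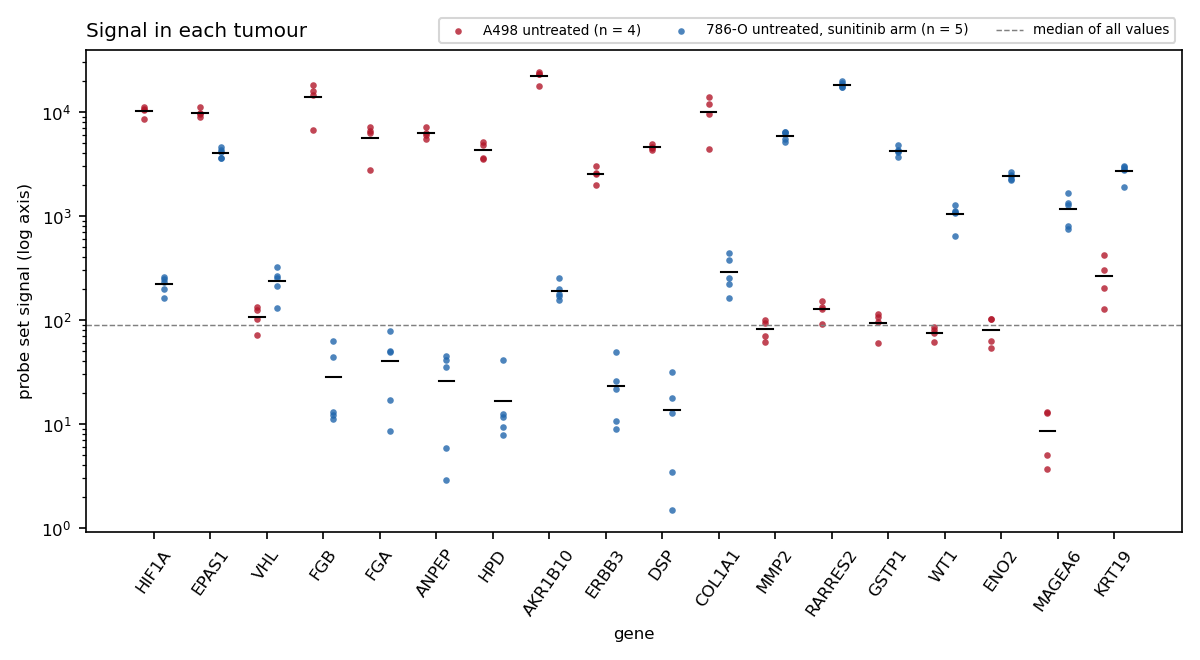
Probe set signal of 18 genes in each of the 4 untreated A498 tumours (red) and the 5 untreated 786-O tumours (blue), on a log axis; black bars are group means and the dashed line is the median of all values, 89.4. For HIF1A, FGB, AKR1B10 and COL1A1 all A498 points lie above all 786-O points, for MMP2, RARRES2, GSTP1 and MAGEA6 all lie below, and the groups share part of their range only for VHL.

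Both lines kept marks of renal origin, in different combinations. PAX8, the transcription factor used to recognise renal carcinoma, was bright in both (2523 ± 87.4 in A498 and 3820 ± 220 in 786-O, difference -0.59 ± 0.11), whereas PAX2, its relative in the developing kidney, was higher in A498 (1.59 ± 0.30). WT1, a regulator of nephron progenitors and podocytes, gave 79.2, 61.5, 74.1 and 86.1 in A498 and 647, 1063, 1082, 1122 and 1270 in 786-O. No A498 tumour reached the 786-O range (difference -3.50 ± 0.17), and the A498 mean was below the limit of 89.4 used to filter genes, so the size is uncertain. POU3F3, which acts in nephron development, went the other way at 2079, 1984, 1354 and 2067 against 10.5 to 171 (4.43 ± 0.44). SIX2, the marker of nephron progenitors (2.44 ± 0.53, in the same run of neighbours as EPAS1), ESRRG (1.71 ± 0.32) and IRX3 (1.60 ± 0.28) were also higher in A498. Of 15 kidney lineage factors tested, 6 were higher in A498 by at least 1 and 1 was higher in 786-O, with a median of 0.76. Of 22 tested HOX genes, which record position along the body, 9 were called higher in 786-O and 2 higher in A498. Over all genes tested the shares were 30.6% and 27.3%. The list median was -0.38. A difference of at least 1 was reached by 22.7%, near the 22.4% over all genes tested. Of these, 4 were higher in 786-O, led by HOXA2 (-2.42 ± 0.12) and HOXB9 (-1.29 ± 0.14), and 1 was higher in A498, HOXC10 (1.47 ± 0.19). HOXB6 was called higher in A498 by 0.63, and lost that call without probe sets open to cross-hybridisation (0.23, adjusted p = 0.392).

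Genes of the proximal tubule, the segment that reclaims sugars, amino acids and small proteins, were on balance higher in A498. Of 37 tested, 15 were higher there by at least 1 and 6 were higher in 786-O, with a median of 0.68 (0.42 without A498 tumour 1). ANPEP, the brush border aminopeptidase N, gave 7191, 6082, 5483 and 6288 in A498 and 44.7, 2.9, 5.9, 41.2 and 35.5 in 786-O, where it was below the filter limit in every tumour (7.38 ± 0.42). HPD, an enzyme of tyrosine breakdown, gave 4852, 3617, 3561 and 5131 against 7.81 to 41.1 (7.11 ± 0.29). DDC, which makes dopamine in the tubule, differed by 6.09 ± 0.43, and SLC17A3, a urate and phosphate transporter, by 3.43 ± 0.45 with signals of 5065 to 13428 in A498 and 437 to 1104 in 786-O. The fatty acid binding protein gene FABP1 differed by 6.34 ± 0.36 in its brighter probe set and by 0.84 in the other (adjusted p = 0.225). The direction was not shared by all members. MME, the neutral endopeptidase of the brush border also called CD10, was bright in both and higher in 786-O at 8818 to 15972 against 3627 to 4814 (-1.48 ± 0.17). FXYD2, a subunit of the sodium pump, gave 7536 to 15046 in 786-O and 1704 to 2210 in A498 (-2.56 ± 0.37), and SLC13A3, a dicarboxylate transporter, was also higher in 786-O (-1.73 ± 0.34). Defining transporters of the mature segment were near the floor in both lines: SLC34A1 had means of 51.3 and 54.4 in A498 and 786-O, SLC22A6 of 72.6 and 22.4, and SLC22A8 of 38.5 and 24.3. The label of renal carcinoma thus found tubule genes in both lines, and not the full set.

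Of 24 listed genes of the loop, distal tubule and collecting duct, 22 had a probe set and 10 passed the filter. SCNN1G, the gamma subunit of the epithelial sodium channel, gave 4382, 6849, 6600 and 7748 in A498 against 1.52 to 22.8 in 786-O (7.95 ± 0.30). AQP3, a water channel of the collecting duct, was higher in A498 by 1.54 ± 0.22. KRT19, a keratin of ducts and simple epithelia, gave 127, 426, 205 and 301 in A498 and 1910, 2753, 2835, 3002 and 2954 in 786-O (-3.37 ± 0.27), and MAL, a protein of apical membranes, was also higher in 786-O (-3.33 ± 0.43). SCNN1A, the alpha subunit of the channel, had a difference of -1.69 ± 0.69 (adjusted p = 0.038), with signals of 7.54 to 114 in A498 and 21.8 to 437 in 786-O. That call was lost when any of 786-O tumours 4 and 5 and A498 tumours 1, 2 and 3 was left out (differences from -1.60 to -1.24), and against the other untreated 786-O group the difference was -0.39.

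Genes for proteins of blood plasma, made in the body mostly by the liver, included some that were bright in A498 and near the floor in 786-O. FGB, the fibrinogen beta chain, had the largest difference of all genes tested: 18030, 14526, 6727 and 16087 in A498 against 12.9, 12.2, 62.6, 11.1 and 44.1 in 786-O (8.34 ± 0.39, adjusted p = 2.6e-15). The alpha chain gene FGA gave 6508, 6234, 2795 and 7154 against 8.49 to 78.6 (6.73 ± 0.52), and the gamma chain gene FGG gave 698, 623, 195 and 1292 against 4.24 to 49.4 (3.79 ± 0.54). Transcript signal of all 3 fibrinogen chain genes was therefore above the filter limit in every A498 tumour, with A498 tumour 3 the lowest for each. The brighter 2 probe sets of FGA differed by 6.73 and 5.94, and a dimmer one, the only one left without probe sets open to cross-hybridisation, by 0.79 (adjusted p = 0.0751). Of 22 coagulation and fibrinolysis genes tested, 15 were higher in A498 by at least 1 and 2 were higher in 786-O, with a median of 1.54. THBD, thrombomodulin, which turns thrombin towards anticoagulation, was among them (5.27 ± 0.32). Higher in 786-O were PLAU, the urokinase that activates plasminogen (-2.72 ± 0.18), and F3, tissue factor, which starts clotting (-2.52 ± 0.24).

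Other secreted proteins of plasma showed the same lean. Of 18 liver-type plasma protein genes tested, 7 were higher in A498 by at least 1 and 0 in 786-O. AGT, angiotensinogen, gave 13333, 6889, 4570 and 10730 against 239 to 486 (4.55 ± 0.33). APOH, a phospholipid-binding plasma protein, gave 1403 to 1622 against 68.4 to 132 (3.72 ± 0.22), a difference that was 1.89 in resistant tumours. APOC1 (3.18 ± 0.57) and LBP, which binds bacterial lipopolysaccharide (2.99 ± 0.67), were also higher in A498. Of 16 complement genes 4 were higher in A498 by at least 1 and 0 in 786-O: SERPING1, the C1 inhibitor (4.74 ± 0.46), MASP1 (2.56 ± 0.38), C1S (1.63 ± 0.18) and C1R (1.36 ± 0.30). ITIH2, of the plasma protein list, was called higher in 786-O by a smaller amount (-0.82 ± 0.21).

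Because several of these genes differed the same way, the promoters of called genes were searched for an element of 13 letters known from promoters of genes of liver and kidney tubule: GTTAAT, any 1 letter (N), and then ATTAAC, its reverse complement, with up to 2 mismatches outside the N. The element is a palindrome, so a search of both strands finds the same places. RefSeq promoter sequences of build GRCh38.p14 were used, running from 250 bases before to 50 bases after each gene start. Of the 31 genes higher in A498 by at least 1 that held the element (CLDN10 and CMPK2 among them), the windows of 5 whose values are described here were chosen, 3 from the plasma lists and 2 from the tubule list, to let the letters be compared. They are shown 5′ to 3′ on the gene's strand with the matching 13 letters in capitals.
FGB: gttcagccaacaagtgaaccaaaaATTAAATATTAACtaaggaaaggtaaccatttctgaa
FGA: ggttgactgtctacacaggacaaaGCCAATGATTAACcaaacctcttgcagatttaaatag
DDC: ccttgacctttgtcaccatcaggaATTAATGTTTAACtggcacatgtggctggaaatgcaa
SLC17A3: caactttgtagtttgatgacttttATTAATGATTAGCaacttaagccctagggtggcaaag
APOH: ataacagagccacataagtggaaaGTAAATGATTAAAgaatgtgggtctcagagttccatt

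The FGB window is chr4:154562898-154562958 on the plus strand, with the element starting at base -58 from the gene start. The others lie on the minus strand: FGA at chr4:154590765-154590825 (element at -59), DDC at chr7:50565435-50565495 (-66), SLC17A3 at chr6:25874259-25874319 (-52) and APOH at chr17:66229519-66229579 (-140). Each of the 5 elements differs from the palindrome at 2 letters. Over all promoters, 357 of 27305 held such an element (1.31%), and among tested genes with a promoter 85 of 11113 did (0.765%). The share was 31 of 1401 (2.21%) for genes called and higher in A498 by at least 1, and 10 of 996 (1.00%) for those higher in 786-O. Within the coagulation, complement and plasma protein lists it was 3 of 20 members higher in A498 by at least 1 and 3 of 22 other tested members. The other members include some that were called higher in 786-O, and with 3 matches on either side no difference in the share can be read. A match describes letters and is not a site of binding.

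Detoxification genes were also more often higher in A498. The transcription factor NRF2 turns on enzymes that conjugate, reduce and export electrophiles. In a joint list of NRF2 and detoxification genes, 22 of 34 tested were higher in A498 by at least 1 and 3 were higher in 786-O, with a median of 1.41. AKR1B10, an aldo-keto reductase, gave 24548, 23502, 17880 and 23123 in A498 against 199, 251, 154, 179 and 170 in 786-O (6.76 ± 0.23, adjusted p = 5.06e-18). GPX3, an extracellular glutathione peroxidase of the tubule, gave 20767, 14570, 8911 and 23406 against 27.7 to 78.1 (7.80 ± 0.27). ABCC2, an exporter of conjugates, gave 1149 to 1624 against 2.68 to 23.7 (5.90 ± 0.25). Well-known NRF2 targets singled out after their values were seen were higher in A498 too: AKR1C1 (4.30 ± 0.18), NQO1 (2.33 ± 0.12), the cystine importer gene SLC7A11 (2.24 ± 0.20) and the thioredoxin reductase gene TXNRD1 (1.59 ± 0.10). GCLM, for the modifier subunit of glutathione synthesis, did not pass the test (0.13 ± 0.15, adjusted p = 0.48), and neither did the transcript of NFE2L2, which encodes NRF2 itself (0.20, adjusted p = 0.113). GCLM was called when its probe sets were averaged (0.53, adjusted p = 0.00128) and NFE2L2 against the other untreated 786-O group (0.36, adjusted p = 0.0052).

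Glutathione transferases were split between the lines. GSTP1, the pi class enzyme, gave 115, 60, 95.9 and 107 in A498 and 3687, 4339, 4864, 4138 and 4176 in 786-O (-5.29 ± 0.18). GSTT1, a gene that many people lack in both copies, gave 8.44 to 13.9 in A498 and 2033 to 2402 in 786-O (-6.38 ± 0.18). GSTA1 had 2 probe sets that disagreed, at 6.42 and -0.71, and with a pseudocount of 1, which changes the probe set taken, its difference turned to -0.79 (adjusted p = 0.000224). Genes of drug transport followed the same list in part: of 16 tested, 8 were higher in A498 by at least 1 and 2 were higher in 786-O. ABCB4, a phospholipid exporter (3.79 ± 0.35), ABCG2, the breast cancer resistance pump (2.0 ± 0.31), and the organic anion transporter gene SLCO4C1 (4.38 ± 0.38) were among the former. SLCO1B3, a transporter of bile acids and drugs (-3.89 ± 0.20), and SLCO4A1 (-2.09 ± 0.25) were higher in 786-O.

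**Figure D3:**
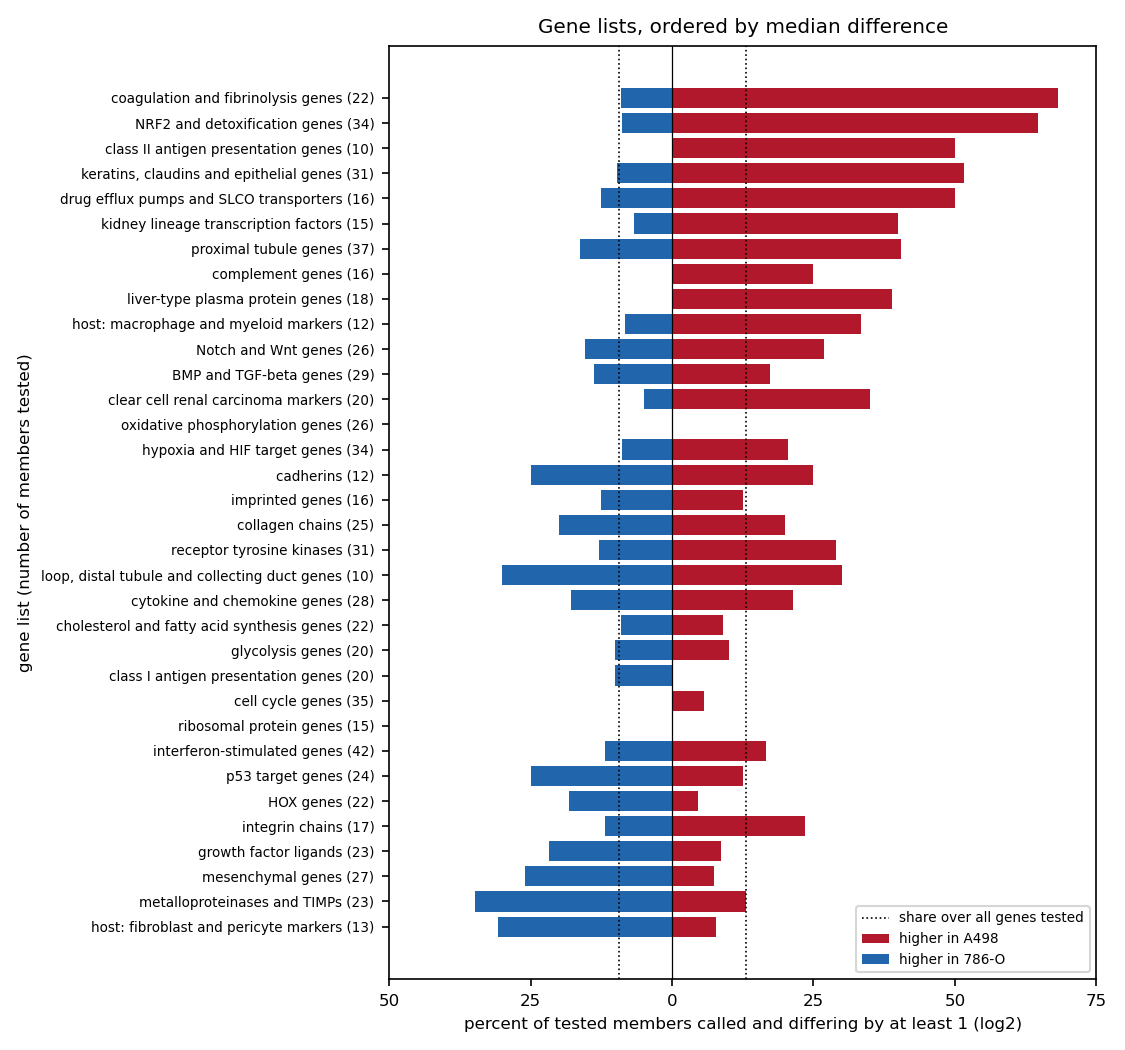
For each list with at least 10 tested members (number in brackets), bars give the percent of members called and differing by at least 1, to the right for those higher in A498 and to the left for those higher in 786-O; lists are ordered by their median difference. Dotted lines mark the share over all genes tested, 13.1% and 9.34%. The coagulation list, the NRF2 and detoxification list, and the class II and epithelial lists lie far to the right, and metalloproteinases and fibroblast markers far to the left.

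Junction genes of epithelia were higher in A498. DSP, desmoplakin, which anchors keratin to desmosomes, gave 4327, 4579, 4948 and 4508 in A498 against 12.7, 3.42, 17.9, 31.9 and 1.48 in 786-O (7.39 ± 0.35). Of 31 keratin, claudin and other epithelial genes tested, 16 were higher in A498 by at least 1 and 3 were higher in 786-O, with a median of 1.05. The tight junction gene CLDN7 differed by 5.79 ± 0.25, the desmosomal cadherin gene DSC2 by 4.96 ± 0.35 and CLDN10, a claudin of kidney tubules, by 4.61 ± 0.20. KRT18, a keratin of simple epithelia, was bright in both and higher in A498, at 19070 to 29009 against 6144 to 8734 (1.81 ± 0.13). SPINT2, which encodes a protease inhibitor of epithelial surfaces, was higher in 786-O at 2140 to 3086 against 143 to 310 (-3.67 ± 0.18). E-cadherin, the product of CDH1, was near the floor in both lines (means of 3.61 and 20.5), and CDH2, for N-cadherin, was bright in both and higher in 786-O (-1.18 ± 0.14). CDH19 (4.30 ± 0.38) was higher in A498, whereas CDH6, a cadherin of the proximal tubule and of renal carcinoma (-1.54 ± 0.14), and CDH16, kidney-specific cadherin (-1.19 ± 0.33), were higher in 786-O. CDH11 was called higher in A498 by 1.21 ± 0.34 and differed by 0.17 from the other untreated 786-O tumours (adjusted p = 0.683).

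Mesenchymal genes were called higher in 786-O more often than in A498, 11 against 5 of 27 tested, and 11 were not called. A difference of at least 1 was reached by 7 higher in 786-O and by 2 higher in A498, with a list median of -0.44. That median was -0.28 without A498 tumour 3 and -0.19 under quantile normalisation. FBN1, fibrillin of elastic microfibrils (-3.12 ± 0.31), TNC, the matrix glycoprotein tenascin C (-2.95 ± 0.40), CTHRC1 (-2.69 ± 0.52) and TCF4 (-2.58 ± 0.18) were higher in 786-O, and TPM2, a muscle-type tropomyosin, was higher in A498 (2.12 ± 0.24). Vimentin, the filament protein that marks this carcinoma, was very bright in both, with means of 24007 and 32287 for VIM. VIM was called higher in 786-O. That call was lost without A498 tumour 3 (-0.28, adjusted p = 0.173) and without 786-O tumour 2 or 3. It was also lost with the GAPDH (-0.25, adjusted p = 0.176) or ACTB 3-prime minus 5-prime difference as a covariate. Matrix proteases leaned the same way: of 23 metalloproteinase and inhibitor genes tested, 8 were higher in 786-O by at least 1 and 3 in A498, with a median of -0.57. MMP2, gelatinase A, gave 93.7, 69.6, 101 and 61.4 in A498 and 6477, 5107, 6230, 6416 and 5501 in 786-O (-5.95 ± 0.16). MMP16, which can activate MMP2 (-3.77 ± 0.27), and ADAMTS5, an aggrecanase (-3.09 ± 0.39), were higher in 786-O, and ADAMTS12 was higher in A498 (4.07 ± 0.50).

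Collagens divided by chain. COL1A1, the alpha 1 chain of type I collagen, gave 4446, 11976, 9633 and 14059 in A498 against 442, 379, 256, 220 and 162 in 786-O (4.99 ± 0.36). COL1A2, the other chain of the same trimer, ran the opposite way at 285, 333, 153 and 177 against 1411, 758, 603, 925 and 480 (-1.72 ± 0.29). The groups did not overlap for either gene, so the chains of type I collagen were each higher in a different line. COL5A1 was higher in A498 (3.51 ± 0.34), and COL14A1 (-3.0 ± 0.27), COL3A1 (-2.30 ± 0.32) and COL4A1 (-1.84 ± 0.22) were higher in 786-O. Of 25 collagen genes tested, 5 were higher in A498 by at least 1 and 5 were higher in 786-O. The host supplies collagen too, and of 13 tested fibroblast and pericyte markers 1 was higher in A498 by at least 1, COL1A1 itself, and 4 were higher in 786-O, COL3A1 and COL1A2 among them. The summed signal of that list was 7710 to 16958 in A498, mostly COL1A1, and 4971 to 9342 in 786-O. PDGFRB (means of 31.1 and 37.0) and LUM (20.9 and 47.9) were below the filter in both lines, and the part of host fibroblasts in the collagen differences was not tested. Of 17 integrin chains tested, 5 were called higher in A498 and 8 higher in 786-O, with a median of -0.39. A difference of at least 1 was reached by 35.3%, beside 22.4% over all genes tested. Of these, 4 were higher in A498, led by ITGA4 (3.33 ± 0.37), and 2 were higher in 786-O, ITGB8 (-2.34 ± 0.25) and ITGB5 (-1.35 ± 0.15).

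Among receptor tyrosine kinases, ERBB3, the heregulin receptor, gave 3036, 1976, 2511 and 2612 in A498 against 8.95, 48.7, 10.7, 21.8 and 26 in 786-O (6.09 ± 0.29). The ephrin receptor genes EPHA7 (5.12 ± 0.30) and EPHB4 (3.34 ± 0.34) and the MSP receptor gene MST1R (2.45 ± 0.36) were also higher in A498, while EPHA2 (-2.19 ± 0.16) and EPHA4 (-1.77 ± 0.22) were higher in 786-O. Of 31 kinases tested, 9 were higher in A498 by at least 1 and 4 in 786-O. Receptors that renal carcinoma drugs or resistance studies often address were bright in both lines and moderately higher in 786-O: MET (9810 to 11874 against 13908 to 17792, -0.55 ± 0.11), EGFR (-0.67 ± 0.21) and AXL (-0.61 ± 0.18). The first 2 lost their calls when probe sets were averaged (-0.14 with adjusted p = 0.495, and -0.11 with adjusted p = 0.449). KDR, FLT4 and PDGFRB, the endothelial and pericyte receptors that sorafenib and sunitinib block, were below the filter in both lines.

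Ligands leaned to 786-O, where 5 of 23 tested growth factor genes were higher by at least 1, against 2 in A498. EREG, epiregulin, a ligand of EGFR, gave 253 to 523 in 786-O and 3.27 to 34.4 in A498 (-3.55 ± 0.33), and the lymphangiogenic factor gene VEGFC (-1.51 ± 0.20) and FGF2 (-1.27 ± 0.28) followed. FGF1 (3.20 ± 0.37) and PDGFD (2.74 ± 0.25) were higher in A498. In the BMP and TGF-beta list GDF15, a stress-induced cytokine (3.08 ± 0.24), LEFTY1, an inhibitor of Nodal signalling (3.00 ± 0.45), and BMP2 (2.37 ± 0.25) were higher in A498, and the receptor gene BMPR1B (-3.20 ± 0.39) and INHBA, the activin A subunit (-2.53 ± 0.23), in 786-O. In the Notch and Wnt list LEF1, a nuclear partner of beta-catenin (2.57 ± 0.19), led in A498, and LFNG, a modifier of Notch receptors, in 786-O at 2105 to 3314 against 222 to 321 (-3.22 ± 0.29). MYC, which acts downstream of many of these, gave 4809, 4507, 5109 and 4550 against 1668, 1010, 1426, 1255 and 896 (1.94 ± 0.19).

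Interferon-stimulated genes differed in both directions. Of 42 tested, 12 were called higher in A498 and 19 higher in 786-O, with 7 and 5 reaching a difference of 1. Those 7 and 5 genes together made up 28.6% of the list, beside 22.4% over all genes tested. TRIM22 gave 743, 826, 375 and 831 in A498 against 3332, 3053, 3621, 3301 and 3198 in 786-O (-2.29 ± 0.18). IFI6 (-2.12 ± 0.22), ISG15, a ubiquitin-like modifier (-2.02 ± 0.17), and IFIT1, which binds viral RNA (-1.82 ± 0.21), were also higher in 786-O. MX1, an antiviral GTPase, ran the other way at 1562 to 2048 against 117 to 215 (3.37 ± 0.28), as did CMPK2 (2.89 ± 0.42). IFI6 and IFIT1 each lie in a run of neighbouring genes higher in 786-O.

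Class II antigen presentation genes were higher in A498, and class I genes differed by less. Of 10 class II genes tested, 5 were higher in A498 by at least 1 and 0 in 786-O. HLA-DRB1 gave 4350, 3051, 948 and 5769 against 498.2 to 932 (2.16 ± 0.41), and HLA-DMA, which loads peptide, 415 to 669 against 89 to 136 (2.09 ± 0.20). HLA-DRA gave 298, 289, 53.6 and 736 against 28.8 to 71.1 (2.15 ± 0.64), and A498 tumour 3 fell inside the 786-O range. HLA-DPB1 (1.80 ± 0.59) lost its call without A498 tumour 4 (1.37, adjusted p = 0.0625) and against the other untreated 786-O group (1.26, adjusted p = 0.0656). Class II is normally a feature of myeloid cells and B cells, and the marker lists of those cells are given below. Of 20 class I genes, 0 were higher in A498 by at least 1 and 2 were higher in 786-O: TAPBP, tapasin (-1.02 ± 0.10), and ERAP1, whose probe sets disagreed (-1.02 in the brightest, 0.51 to 0.63 in others). Chemokine genes differed by member. CCL2, which attracts monocytes, gave 7215 to 12786 in A498 and 599 to 1920 in 786-O (3.24 ± 0.30), CXCL14 (2.72 ± 0.49) and CXCL2, which attracts neutrophils (1.88 ± 0.29), were also higher in A498, and TNF (-2.16 ± 0.24) and CCL5 (-2.18 ± 0.54) were higher in 786-O.

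A called difference of at least 1 was reached by 20% of tested glycolysis genes, near the 22.4% over all genes tested, and by 0% of oxidative phosphorylation genes. Over all genes tested, 27.3% were called higher in A498 and 30.6% higher in 786-O. ENO2, the neuronal enolase, gave 53.2, 102, 102 and 63 in A498 and 2236, 2453, 2469, 2649 and 2280 in 786-O (-4.70 ± 0.17), and ALDOC (1.92 ± 0.19) and GPI (1.70 ± 0.11) were higher in A498. Of 20 glycolysis genes tested, 5 were called higher in A498 and 8 higher in 786-O, with 2 in each direction reaching a difference of 1. GPI sits in a run of 15 neighbouring genes of which 12 were called higher in A498. In oxidative phosphorylation 12 of 26 genes were called higher in A498 and 2 lower, but 0 reached a difference of 1. SDHA (0.90 ± 0.09), UQCRC2 (0.89 ± 0.09) and NDUFS1 (0.85 ± 0.07) were the widest apart. NNT, which makes NADPH in the mitochondrion, gave 1.77 to 25 in A498 and 1191 to 1892 in 786-O (-5.85 ± 0.24), and OXCT1, which lets cells burn ketone bodies, 8.86 to 63.8 against 1701 to 2717 (-5.73 ± 0.29). In lipid synthesis SCD, the desaturase that makes oleate, was higher in A498 at 5985 to 7715 against 258 to 738 (3.79 ± 0.36), and FADS2 (-1.87 ± 0.17) and ELOVL6 (-1.65 ± 0.24) were higher in 786-O.

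Genes of the cell cycle differed by small amounts: of 35 tested, 14 were called higher in 786-O and 6 higher in A498. Their median was -0.26, beside -0.06 over all genes tested. Against the other untreated 786-O group the list median was -0.56, beside -0.12. A difference of 1 was reached by 2 genes, CCNE1 (1.04 ± 0.15) and CDC6 (1.03 ± 0.21), which is 5.71% beside 22.4% over all genes tested. The call of CCNE1 was lost when its probe sets were averaged (0.43, adjusted p = 0.0579). MKI67 was not called (-0.26 ± 0.19, adjusted p = 0.252), with 625 to 1059 in A498 and 944 to 1184 in 786-O, though it was against the other untreated 786-O tumours (-0.90, adjusted p = 0.000205). In the p53 target list, 6 of 24 were higher in 786-O by at least 1 and 3 in A498. CDKN1A, the p21 inhibitor of cyclin-dependent kinases, gave 729 to 918 in A498 and 1889 to 2849 in 786-O (-1.59 ± 0.14), and ZMAT3 (-1.71 ± 0.16) and TIGAR (-1.49 ± 0.13) went with it, while SPATA18, a gene of mitochondrial quality control, was higher in A498 (4.24 ± 0.37). The chromatin genes of renal carcinoma PBRM1 (-0.91 ± 0.18) and SETD2 (-1.08 ± 0.14) and the kinase gene MTOR (-1.55 ± 0.15) were higher in 786-O, and the last 2 lie in runs of neighbouring genes that were higher there.

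Few germline genes were measured. MAGEA6 gave 803, 748, 1654, 1326 and 1269 in 786-O against 4.99, 12.7, 3.67 and 13.1 in A498 (-5.54 ± 0.24), and SPANXB1 gave 89.2 to 821 against 12.3 to 21.9 (-3.39 ± 0.43). Of the cancer-testis list 29 genes were below the filter, and of 6 tested 4 were higher in 786-O by at least 1 and 1 in A498, PRAME (1.28 ± 0.11). The summed signal of the whole list overlapped between the lines, at 3162 to 3693 in A498 and 3053 to 4869 in 786-O. Closely related copies of these families can share probes. Among imprinted genes, CDKN1C, a brake on the cell cycle (3.57 ± 0.37), and DIRAS3 (2.68 ± 0.33) were higher in A498, and PPP1R9A (-1.44 ± 0.13) and PEG10 (-1.25 ± 0.22) in 786-O.

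The remaining genes of largest difference belonged to no list. In A498 they were SULF2, a heparan sulfatase of the cell surface, with 8496 to 10778 against 1.5 to 79.6 (8.10 ± 0.39); GDA, guanine deaminase (7.75 ± 0.39); the tetraspanin gene TSPAN8 (7.73 ± 0.34); BBOX1, the last enzyme of carnitine synthesis (7.47 ± 0.44); CLRN3 (7.40 ± 0.42); RASGEF1A (7.26 ± 0.29); the endocytic receptor gene LY75 (7.18 ± 0.29); SUCNR1, the succinate receptor of the kidney (7.05 ± 0.46); and CAPN6 (7.02 ± 0.22). In each of these the 786-O mean was below the filter limit, so the size rests on the pseudocount and the genes have no firm order. Of those named in 786-O the largest was PDE10A, a cyclic nucleotide phosphodiesterase, with 2769, 3214, 2921, 4485 and 3618 against 0.975, 9.93, 2.75 and 15.1 in A498 (-7.22 ± 0.17, adjusted p = 1.22e-20). RARRES2, which encodes the chemoattractant chemerin, was measured above the limit in both groups, at 17350, 18262, 19735, 19156 and 17520 against 129, 134, 153 and 91.8 (-7.03 ± 0.30). RNASE1 (-6.77 ± 0.43), SCRN1 (-6.73 ± 0.22), CD163L1 (-5.81 ± 0.18), SLC43A3 (-5.80 ± 0.26), the neuropeptide gene NMU (-5.66 ± 0.26) and EGFLAM (-5.62 ± 0.22) followed, all with an A498 mean below the limit.

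ZNF655 (-6.80 ± 0.21) and ZNF83 (-5.96 ± 0.17) were also among the largest in 786-O, and zinc finger genes were looked at as a family after this was seen. Of 421 tested protein-coding genes named ZNF, ZFP, ZSCAN or ZKSCAN, 106 were higher in 786-O by at least 1 (25.2%) and 25 were higher in A498 (5.94%), beside 9.34% and 13.1% over all genes tested. Those on chromosome 19 carried most of it: 72 of 177 were higher in 786-O (40.7%) and 6 in A498, against 34 and 19 of 244 elsewhere. With probe sets open to cross-hybridisation left out, the counts on chromosome 19 were 47 and 3 of 122. Clusters of these genes formed 5 runs of neighbours higher in 786-O, among them the run from ZNF766 to NLRP12, where 14 of 19 genes were higher by at least 1 with a median of -2.44, and that from ZNF506 to HAVCR1P1, with 16 of 21 and a median of -1.67. In resistant tumours the medians of these runs were -1.88 and -1.29. Over the genome, 12 runs were higher in A498, with 278 genes in all, and 27 were higher in 786-O, with 562 genes. A run joins windows of 15 neighbouring tested genes in which at least 12 were called the same way. The longest in A498 held 69 genes from DIMT1 to MTX3 (53 called, median 0.66) and the longest in 786-O held 36 from MIPOL1 to NIN (29 called, median -0.64). PLAU, ITGB5 and TCF4 also lie in runs higher in 786-O, and CDKN1C and UQCRC2 in runs higher in A498. Copy number was not measured here.

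Tumours of a group were not equal in every program. A498 tumour 3 was the lowest of its 4 in 650 of the 1810 genes higher in A498 by at least 1 (35.9%). It was the lowest in 16 of 26 such genes of the coagulation, complement and plasma protein lists and in 10 of 15 proximal tubule genes. The same held in 14 of 22 NRF2 and detoxification genes, in 5 of 5 class II genes and in 7 of 16 keratin, claudin and epithelial genes (43.8%). Leaving it out moved no call of the fibrinogen or NRF2 genes named here, and the total called was then 7749. Among 786-O tumours the genes of largest spread were SLC22A2, GLDC, TREM1, TNNC2 and TNMD. GLDC, the glycine cleavage enzyme, ran from 8.02 to 517 in 786-O and from 1068 to 2846 in A498, and was called nonetheless (3.48 ± 0.69). HBE1, embryonic epsilon globin, was very bright in both lines, at 3045, 29538, 8503 and 28489 in A498 and 16621 to 35468 in 786-O, and was not called (-1.02 ± 0.56, adjusted p = 0.123). SLC22A2, the organic cation transporter of the tubule, ran from 15.1 to 611 in A498 and from 5.43 to 314 in 786-O, and was not called either (0.99 ± 0.75, adjusted p = 0.272). Both depended on single tumours: HBE1 was called without A498 tumour 2 (-1.45, adjusted p = 0.0383) or 4 (-1.43, adjusted p = 0.0421), and SLC22A2 without A498 tumour 3 (1.88, adjusted p = 0.0252).

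Markers of host cells were mostly near the floor, which on a human array need not mean that the cells were few. Of 21 endothelial markers 12 were below the filter, among them CDH5 (means of 8.52 in A498 and 17.8 in 786-O) and VWF (10.8 and 12.95), and 2 of 9 tested were higher in A498 by at least 1, EGFL7 (1.73 ± 0.38) and MMRN2 (1.83 ± 0.36). Their summed signal was 1500 to 1536 in A498 and 1131 to 1486 in 786-O. Of 12 tested macrophage and myeloid markers, 4 were higher in A498 and 1 in 786-O by at least 1, with summed signals of 2552 to 2918 in A498 and 908 to 1671 in 786-O. The defining markers CD163 (13.5 and 29.7), CD14 (7.47 and 15.5) and PTPRC (21.9 and 29.2) were below the filter in both lines. S100A9, a calcium-binding protein of neutrophils that some carcinomas also make, led that list (4.46 ± 0.43). Of 3 lymphocyte markers tested, IL7R was higher in 786-O (-3.25 ± 0.34), with CD3E (63.0 and 68.1) and MS4A1 (22.8 and 51.2) below the filter and a summed signal of 288 to 439 in A498 and 700 to 1132 in 786-O. Of 7 skeletal muscle markers 0 were higher in A498 and 1 was higher in 786-O, TTN (-1.47 ± 0.31), with CKM at 6.12 and 5.71, and of 3 tested markers each of red blood cells and of skin and fat, 0 and 1 passed, the latter CIDEC (2.12 ± 0.23). The summed signals of these 3 lists overlapped between the lines, at 335 to 1102 and 560 to 1810 for muscle, 388 to 856 and 618 to 991 for red blood cells, and 5315 to 5887 and 4523 to 6382 for skin and fat. The part of host cells in the differences above was not tested.

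The second set of untreated 786-O tumours was compared with the same A498 arrays, so the comparisons share these. Against it 8505 genes were called (61.6%) and 3255 of them by at least 1 (23.6%). FGB differed by 7.33 there, HIF1A by 4.66, AKR1B10 by 6.43, MMP2 by -5.90 and RARRES2 by -6.81. The untreated 786-O groups themselves differed in 38 genes (0.275%), 0 of them by 2 or more (0.0%), where 1819 had an unadjusted p under 0.05 in limma.

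In the resistant tumours, which share no array with the untreated ones, 8280 genes were called between the lines (60.0%), 29.9% of all genes being higher in A498 and 30.1% higher in 786-O, and 3156 by at least 1 (22.9%). Of the 1810 genes higher in A498 by at least 1 when untreated, 1727 were called the same way (95.4%) and 0 the opposite way. Of the 1289 higher in 786-O, 1161 were called the same way (90.1%) and 8 the opposite way: CELF2, ELAPOR1, GASK1B, IGLJ3, IRAG2, RAB26, TPPP3 and ZNF425. The untreated call was lost for ELAPOR1 (-0.85, adjusted p = 0.0551) and IGLJ3 (-0.75, adjusted p = 0.123) without A498 tumour 3, for IGLJ3 also without 786-O tumour 3 (-0.98, adjusted p = 0.0516), with array weights (adjusted p = 0.0541) and with the GAPDH covariate (adjusted p = 0.0726), for IRAG2 (-0.82, adjusted p = 0.0693) and IGLJ3 (-0.70, adjusted p = 0.132) against the other untreated 786-O group, and for CELF2 without probe sets open to cross-hybridisation (-0.16), where ELAPOR1 turned to 0.043. RAB26, a GTPase of secretory granules, for example, went from -1.65 ± 0.16 to 0.44 ± 0.15 (adjusted p = 0.0149). The resistant 786-O tumours have titles beginning with 33, so the line and this mark cannot be told apart there.

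The line difference itself was tested for a change between untreated and resistant tumours. In this test the resistant 786-O tumours had titles beginning with 33. The untreated 786-O tumours, of the sunitinib arm, had titles beginning with 35. Resistance therefore cannot be told apart from arm and title mark in 786-O. The line difference was smaller when resistant for BMPR1B, which went from -3.20 to -0.03, for SCD, from 3.79 to 1.71, and for the collagens COL3A1 (-2.30 to -0.28), COL14A1 (-3.0 to -0.77) and COL1A2 (-1.72 to -0.29). It was larger for MMP1, interstitial collagenase, from -2.30 to -5.72, and for COL5A1, from 3.51 to 5.82. In BMPR1B the means were 59.5 and 597 in untreated A498 and 786-O and 232 and 235 in resistant ones. For SCD they were 6948 and 516 when untreated and 10886 and 3514 when resistant, so the resistant mean was above the untreated one in both lines. FGB, HIF1A, MMP2, RARRES2, PDE10A and ERBB3 kept differences of 7.23, 5.52, -6.43, -6.54, -7.10 and 5.21.

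**Figure D4:**
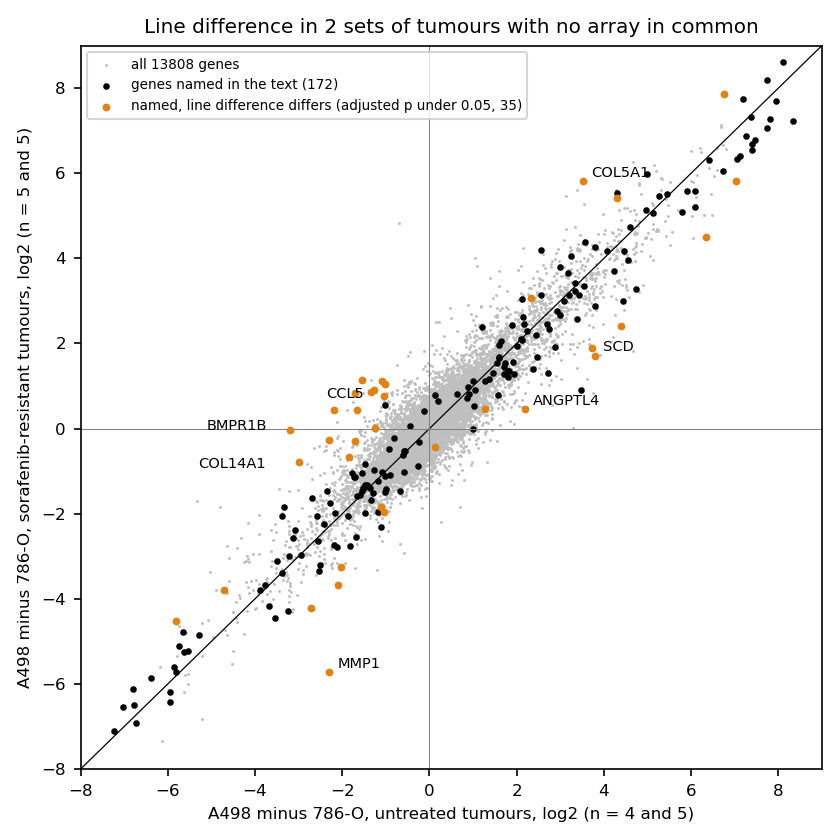
Each point is a gene, placed by its A498 minus 786-O difference in untreated tumours (x axis, 4 and 5 tumours) and in sorafenib-resistant tumours (y axis, 5 and 5 tumours), both on the log2(signal + 16) scale; the line marks equal differences. Most genes named in the text (black) lie near the line. Orange marks those whose line difference differed between untreated and resistant tumours at an adjusted p under 0.05, such as MMP1, BMPR1B and SCD.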

How the data were processed

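The series holds 28 Affymetrix HG-U133 Plus 2.0 arrays of xenograft tumours, of which 9 form the comparison. The deposited values are linear probe set intensity, to which the authors gave a common scale: leaving out 2% of values at either end, array means are 500.06 to 500.07. The submitters' processing notes name MAS5 and RMA, with no roles or versions, and the scanner files were not used here. Probe sets with 1 gene symbol in the platform annotation (41091 of 54675) were named through RefSeq, 41037 of them by Entrez identifier. The probe set with the highest mean over all arrays stood for each of 19775 genes. Genes with a signal above 89.4, the median of all values, on at least 4 arrays were tested (13808), and 5967 were left out.

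The log2 of the signal plus 16 was fitted with limma 3.58.1 in R 4.3.3 across all 28 arrays and 6 groups, which share 1 estimate of the spread, with Benjamini-Hochberg adjustment over all genes. All adjusted p-values are from this test. On simulated normal values of this design, shifts of 0.5, 1, 2 and 4 were recovered for 18%, 82%, 90% and 100% of 50 genes each. All other genes of the 13808 were left unshifted, whereas far more were called in the real data. These rates therefore check the fit and do not give the sensitivity of the real comparison. The number of arrays limits the precision.

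Genes are named where they were among the 15 largest differences without overlap in either direction, among up to 4 called members of a list in its main direction and 2 in the other, among the 5 of largest spread in a group, or single genes listed for their role. Outside this rule EGLN3, CDH2, VIM, host and tubule markers below the filter, AKR1C1, NQO1, SLC7A11, TXNRD1, GCLM and NFE2L2, and the 8 genes called oppositely in resistant tumours were chosen after their values were seen. Uncharacterised, sex chromosome dosage and Y-linked genes are not named. A further gene that the rule names is not reported here. The members and lists were chosen with earlier results of these data known. Tumours are numbered in accession order, since the labels give no numbers. Alternatives were other pseudocounts, filters, probe set rules, scalings, fits, covariates and comparators, and leaving out each tumour. Figures were drawn with matplotlib 3.10.9.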

Additional observations from a re-analysis of the deposited data

Results flagged for a closer look

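In 23 of 414 groups of tumours (207 genes in each line) 1 tumour stood apart from the rest, its gap to the nearest other taking up most of the range of its group (5.56% of groups). Chance gives about 1 group in 20. Among A498 tumours a single low value stood apart for POU3F3 in tumour 3 (signal 1354, gap 0.891 of the range), FGA in tumour 3 (signal 2795, gap 0.853 of the range), KRT18 in tumour 3 (signal 19070, gap 0.899 of the range) and VIM in tumour 3 (signal 16994, gap 0.941 of the range). The same was seen for COL5A1 in tumour 1 (signal 477, gap 0.892 of the range), COL3A1 in tumour 4 (signal 408, gap 0.858 of the range), COL4A1 in tumour 1 (signal 616, gap 0.844 of the range) and ITGB8 in tumour 3 (signal 2216, gap 0.942 of the range). The same was seen for PDGFD in tumour 1 (signal 307, gap 0.853 of the range), TRIM22 in tumour 3 (signal 375, gap 0.859 of the range) and ZMAT3 in tumour 3 (signal 623, gap 0.881 of the range). Among 786-O tumours a single low value stood apart for ANKRD37 in tumour 1 (signal 240, gap 0.781 of the range), WT1 in tumour 1 (signal 647, gap 0.735 of the range), KRT19 in tumour 1 (signal 1910, gap 0.808 of the range) and LBP in tumour 1 (signal 15, gap 0.794 of the range). The same was seen for CDC6 in tumour 1 (signal 199, gap 0.774 of the range), CDKN1A in tumour 5 (signal 1889, gap 0.72 of the range) and TPPP3 in tumour 5 (signal 73.1, gap 0.835 of the range). Among 786-O tumours a single high value stood apart for HPD in tumour 1 (signal 41.1, gap 0.801 of the range), ABCC2 in tumour 4 (signal 23.7, gap 0.731 of the range), AXL in tumour 1 (signal 3687, gap 0.711 of the range) and BBOX1 in tumour 1 (signal 37.8, gap 0.807 of the range). The same was seen for IL7R in tumour 1 (signal 623, gap 0.921 of the range).

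For 35 genes of the text the A498 minus 786-O difference itself differed between untreated and resistant tumours at an adjusted p under 0.05 in limma. The 786-O groups of this test also differ in arm and in the start of their titles. Values are the difference in resistant tumours minus that in untreated ones, on the log2 scale. It moved towards A498 for BMPR1B (3.17), TPPP3 (2.68), CCL5 (2.61), IRAG2 (2.56), COL5A1 (2.31), COL14A1 (2.23), CELF2 (2.20), IGLJ3 (2.19) and ZNF425 (2.17). A move the same way was seen for RAB26 (2.10), GASK1B (2.06), COL3A1 (2.02), ELAPOR1 (1.80), COL1A2 (1.43), CD163L1 (1.29), PEG10 (1.27), COL4A1 (1.18) and AKR1C1 (1.11). A move the same way was seen for AKR1B10 (1.09), ENO2 (0.91) and NQO1 (0.73). It moved towards 786-O for MMP1 (-3.42), SCD (-2.08), SLCO4C1 (-1.97), FABP1 (-1.85), APOH (-1.83), ANGPTL4 (-1.73), SLCO4A1 (-1.57), PLAU (-1.51) and ISG15 (-1.22). A move the same way was seen for CAPN6 (-1.20), SLC2A1 (-0.92), EPAS1 (-0.80), CCND1 (-0.75) and EGLN3 (-0.56).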

How the results depend on the processing

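No paired analysis was possible because the labels give no replicate numbers. The 8002 genes called became 6094 to 8708 under 15 other settings, 7566 to 7817 without 1 tumour, and 3099 when a difference of at least 1 was asked as well. Against the other untreated 786-O group, 8165 to 8614 genes were called under 4 other settings (8505 as reported), and in resistant tumours 8042 to 8350 (8280); no tumour was left out there. The 38 genes called between the untreated 786-O groups became 24 with a pseudocount of 1 and 0 with only their 10 arrays in the fit. The count of genes whose line difference differed between untreated and resistant tumours was 565, and 521 to 646 under 3 settings chosen after seeing the data. Under a pseudocount of 64, list medians were 0.53 for kidney lineage transcription factors, 1.25 for coagulation and fibrinolysis genes, -0.28 for growth factor ligands, 0.89 for keratins, claudins and epithelial genes, -0.25 for mesenchymal genes and -0.97 for cancer-testis genes. Under no filter on low values, list medians were 0.14 for kidney lineage transcription factors, 1.17 for coagulation and fibrinolysis genes, 0.085 for Notch and Wnt genes, 0.76 for keratins, claudins and epithelial genes, -0.28 for integrin chains, -0.27 for metalloproteinases and TIMPs, 1.26 for NRF2 and detoxification genes, 0.14 for drug efflux pumps and SLCO transporters, -0.042 for cancer-testis genes, -0.10 for endothelium markers, -0.085 for macrophage and myeloid markers, 0.21 for skin and fat markers and -0.30 for lymphocyte markers. Under quantile normalisation, list medians were 0.19 for hypoxia and HIF target genes, -0.10 for glycolysis genes, -0.19 for mesenchymal genes and -0.039 for ribosomal protein genes. Under a pseudocount of 1, list medians were 1.22 for NRF2 and detoxification genes and -2.19 for cancer-testis genes. Leaving out 1 tumour at a time gave medians of 0.52 to 0.87 for kidney lineage transcription factors, 0.0086 to 0.16 for hypoxia and HIF target genes, -0.42 to -0.24 for interferon-stimulated genes, 0.19 to 0.73 for liver-type plasma protein genes and -0.44 to -0.25 for growth factor ligands. It gave 0.12 to 0.33 for Notch and Wnt genes, -0.47 to -0.33 for integrin chains, -0.29 to -0.10 for cholesterol and fatty acid synthesis genes, -0.19 to 0.028 for imprinted genes, 0.084 to 0.28 for endothelium markers and 0.33 to 0.87 for skin and fat markers. Of 207 genes in the text, 184 kept their direction and their side of the threshold under every alternative. The direction reversed for ERAP1 (0.11 with probe sets averaged, 0.51 without probe sets open to cross-hybridisation), for ELAPOR1 (0.043 without such probe sets) and for GSTA1 (-0.79 with a pseudocount of 1). With no filter, dim members entered the lists, and each of the medians given for it lay nearer to 0 than with the filter. The sign also changed for endothelium markers, from 0.22 with the filter to -0.10. It changed for macrophage and myeloid markers too, from 0.32 to -0.085. Signal near the background limits dim genes, whose differences depend on the pseudocount.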
